A study of Mus musculus with 22 samples.

Results

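The genes Adgre1, Cd68, Csf1r, Fcgr1, Mertk, Itgam, Aif1, Cx3cr1, Ms4a7 and Ly6c2, which are widely used as markers of macrophages and monocytes, were examined gene by gene in mouse mammary tissue. These 10 genes were chosen by symbol. All 10 were found among the 52526 gene symbols of the deposited files and all 10 were above the deposited floor in enough mice to be tested. The tissue was left mammary tissue (the fourth gland) of 22 female C57BL/6J mice aged 7 to 8 weeks, each engrafted with 100000 EO771 cells, a mammary cancer line of the same strain that carried firefly luciferase, and taken 24 hours later. From 2 weeks before engraftment until collection the mice had either a running wheel or, as controls, the hub shelter of the wheel alone. Each mouse received liposomes by vein 24 hours before engraftment and again at engraftment, filled either with PBS (6 control and 6 wheel-running mice) or with clodronate (5 control and 5 wheel-running mice). The labels give both liposome reagents the same catalogue number, and the groups were taken from the treatment names. All mice of both liposome groups therefore carried tumor cells and liposomes, and no mouse was free of either. Mice are named by their group and the replicate number of the labels, and a mouse is 1 library.

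Macrophages and monocytes are phagocytes, and many tissue macrophages depend on the receptor encoded by Csf1r for survival. Blood monocytes of the classical kind carry much Ly6C and enter tissue during injury, whereas many tissue macrophages are seeded early in life and renew locally. Clodronate liposomes are swallowed by phagocytes, release the drug inside them and kill them, and are widely used to deplete macrophages. In fat and mammary tissue, macrophages clear dying cells and lie along ducts and vessels.

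QuantSeq sequences only the 3′ end of a transcript, so levels can be set beside each other between genes without a correction for transcript length. Levels are given in CPM, reads scaled to a common library total, and every value below 1 had been raised to 1, here called the floor. The libraries held 13256467 to 20484578 reads (median 16293026), so that 1 CPM stands for 13 to 20 reads, and lower levels were not detectable. Adipocyte genes (9 of 9) and mammary epithelial genes (8 of 8) were each above the floor in some mice of every group. A set of 5 of the 22 mice (1 control and 1 wheel-running mouse with PBS liposomes and 3 wheel-running mice with clodronate liposomes) stood apart by 12 lymphocyte genes, whose mean log2(CPM + 1) was 4.10 to 5.50 in them and 1.04 to 1.36 in the other 17. Lymph node genes moved with them (4.10 to 5.17 against 1.00 to 1.26). Most of the wheel-running mice with clodronate liposomes belong to these 5 and none of the control mice with clodronate liposomes do, so the clodronate changes are given with all mice and without these 5, which leaves 2 wheel-running mice with clodronate liposomes. The part that lymphocyte-rich tissue has in the results with all mice was not tested.

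One member shares nearly all of its sequence with a neighboring gene, and the sequences are shown because they bear on how its reads can be assigned. Ly6c2, which encodes the Ly6C protein of monocytes, lies on chromosome 15 (75108158 to 75111970, minus strand, GENCODE M21 annotation of GRCm38), and Ly6c1, an endothelial gene in many tissues, lies on the same strand at 75044018 to 75048830. Their coding sequences, 396 bases each, differ at 9 bases (97.7% identical), and the last 400 bases of the transcripts, from which QuantSeq reads come, are 98.2% identical. The last 120 coding bases, all in a single exon, differ at 2 positions, shown in capitals.
Ly6c2 (chr15:75108543-75108662, minus strand): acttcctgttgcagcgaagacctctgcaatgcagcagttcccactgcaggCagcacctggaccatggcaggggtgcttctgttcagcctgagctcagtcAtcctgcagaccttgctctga
Ly6c1 (chr15:75045402-75045521, minus strand): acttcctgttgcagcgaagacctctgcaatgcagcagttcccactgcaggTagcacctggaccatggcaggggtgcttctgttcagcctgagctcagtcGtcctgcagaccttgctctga
Beyond the stop codon, where most of the last 400 bases lie, the sequences are 382 and 389 bases long and 96.4% identical, with a longest identical stretch of 124 bases. Reads of either gene that cover no differing base cannot be assigned and may be lost. The level of Ly6c2 is uncertain to that extent.

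The promoters of the pair are far less alike than their transcripts (62.3% identical when 300 bases of each are aligned, RefSeq, GRCm38.p6). For 1 of the 2 start sites that RefSeq gives each gene, they are shown from 250 bases before to 50 after the start site, with matches to GAGGAA, the core bound by the phagocyte factor PU.1, and to its reverse complement TTCCTC in capitals.
Ly6c2 (chr15:75111922-75112221, minus strand): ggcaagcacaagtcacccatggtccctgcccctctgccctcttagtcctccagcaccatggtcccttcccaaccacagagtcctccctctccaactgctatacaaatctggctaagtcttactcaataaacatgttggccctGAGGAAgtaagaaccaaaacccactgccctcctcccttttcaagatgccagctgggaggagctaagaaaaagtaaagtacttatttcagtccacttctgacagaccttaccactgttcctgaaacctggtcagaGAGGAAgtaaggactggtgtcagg
Ly6c1 (chr15:75048788-75049087, minus strand): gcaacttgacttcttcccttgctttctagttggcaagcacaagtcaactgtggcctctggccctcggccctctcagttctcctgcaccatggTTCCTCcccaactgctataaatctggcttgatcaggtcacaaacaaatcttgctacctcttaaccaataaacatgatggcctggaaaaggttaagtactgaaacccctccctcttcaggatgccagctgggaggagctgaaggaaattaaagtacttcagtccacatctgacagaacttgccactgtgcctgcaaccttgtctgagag
The Ly6c2 window holds 2 matches and the Ly6c1 window 1. RefSeq promoters were at hand for 8 of the 10 members, and at least 1 promoter held a match in 6 of these 8 (Aif1, Cd68, Fcgr1, Itgam, Ly6c2 and Ms4a7, not Cx3cr1 or Mertk), compared to 31.3% of all 27025 genes in the table. A match is a description of the letters and not of a bound site.

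The other members were not close to any other gene over their last 400 transcript bases. Mertk lies on chromosome 2 (128698956 to 128802894, plus strand), Fcgr1 on chromosome 3 (96282909 to 96293969, minus) and Itgam on chromosome 7 (128062640 to 128118491, plus). Cx3cr1 lies on chromosome 9 (119901616 to 120069879, minus), Cd68 on chromosome 11 (69664213 to 69666153, minus) and Csf1r on chromosome 18 (61100598 to 61132149, plus). Aif1 and Adgre1 lie on chromosome 17 (35170991 to 35176068, minus, and 57358691 to 57483527, plus), and Ms4a7 on chromosome 19 (11321039 to 11336146, minus). All are protein-coding. In this annotation Itgam shares 68.7% of its exon bases with Gm49368 on the same strand, and reads in shared exons may be lost where a counting annotation holds both. Over the last 400 bases of the Itgam transcript compared, however, the nearest other gene was Vmn1r88 (80.3% identical over 76 bases) and not Gm49368. Csf1r shares 15.1% of its exon bases with Hmgxb3 on the opposite strand, and whether the counting used strand is not given in the sources used here.

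Csf1r, the receptor for the growth factors CSF1 and IL-34, was the most abundant member, with a mean of 43.7 CPM over the 22 mice (20.7 to 66.0). Mertk, the receptor with which macrophages take up dying cells, followed at 27.1 CPM (11.4 to 40.2), and was below Csf1r in 18 of 22 mice. Itgam, the alpha chain of complement receptor 3 (CD11b), had 16.0 CPM (7.41 to 36.3). Aif1, which encodes the actin-binding protein IBA1, had 13.2 CPM (2.99 to 35.5), and Cd68, a glycoprotein of phagocyte lysosomes, had 12.8 CPM (3.23 to 36.3). Aif1 was above Cd68 in 11 of 22 mice, so this pair has no order beyond its spread. Adgre1, which encodes the surface protein F4/80, had 8.94 CPM (2.27 to 20.1). Ms4a7, a membrane protein of macrophages, had 6.44 CPM (1.00 to 16.4) and was above Cx3cr1, the receptor for fractalkine, in 9 of 22 mice, while Cx3cr1 had 5.04 CPM (1.00 to 14.4). Fcgr1, the high-affinity IgG receptor CD64, was the scarcest at 3.93 CPM (1.00 to 21). Ly6c2 had the widest range, 1.00 to 79.5 CPM, and its mean of 19.2 CPM stood far above its median of 2.97. Csf1r, Mertk, Itgam, Aif1, Cd68 and Adgre1 were above the floor in every mouse, whereas Fcgr1 and Ly6c2 were at the floor in 4 mice each, Ms4a7 in 2 and Cx3cr1 in 1.

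**Figure D1:**
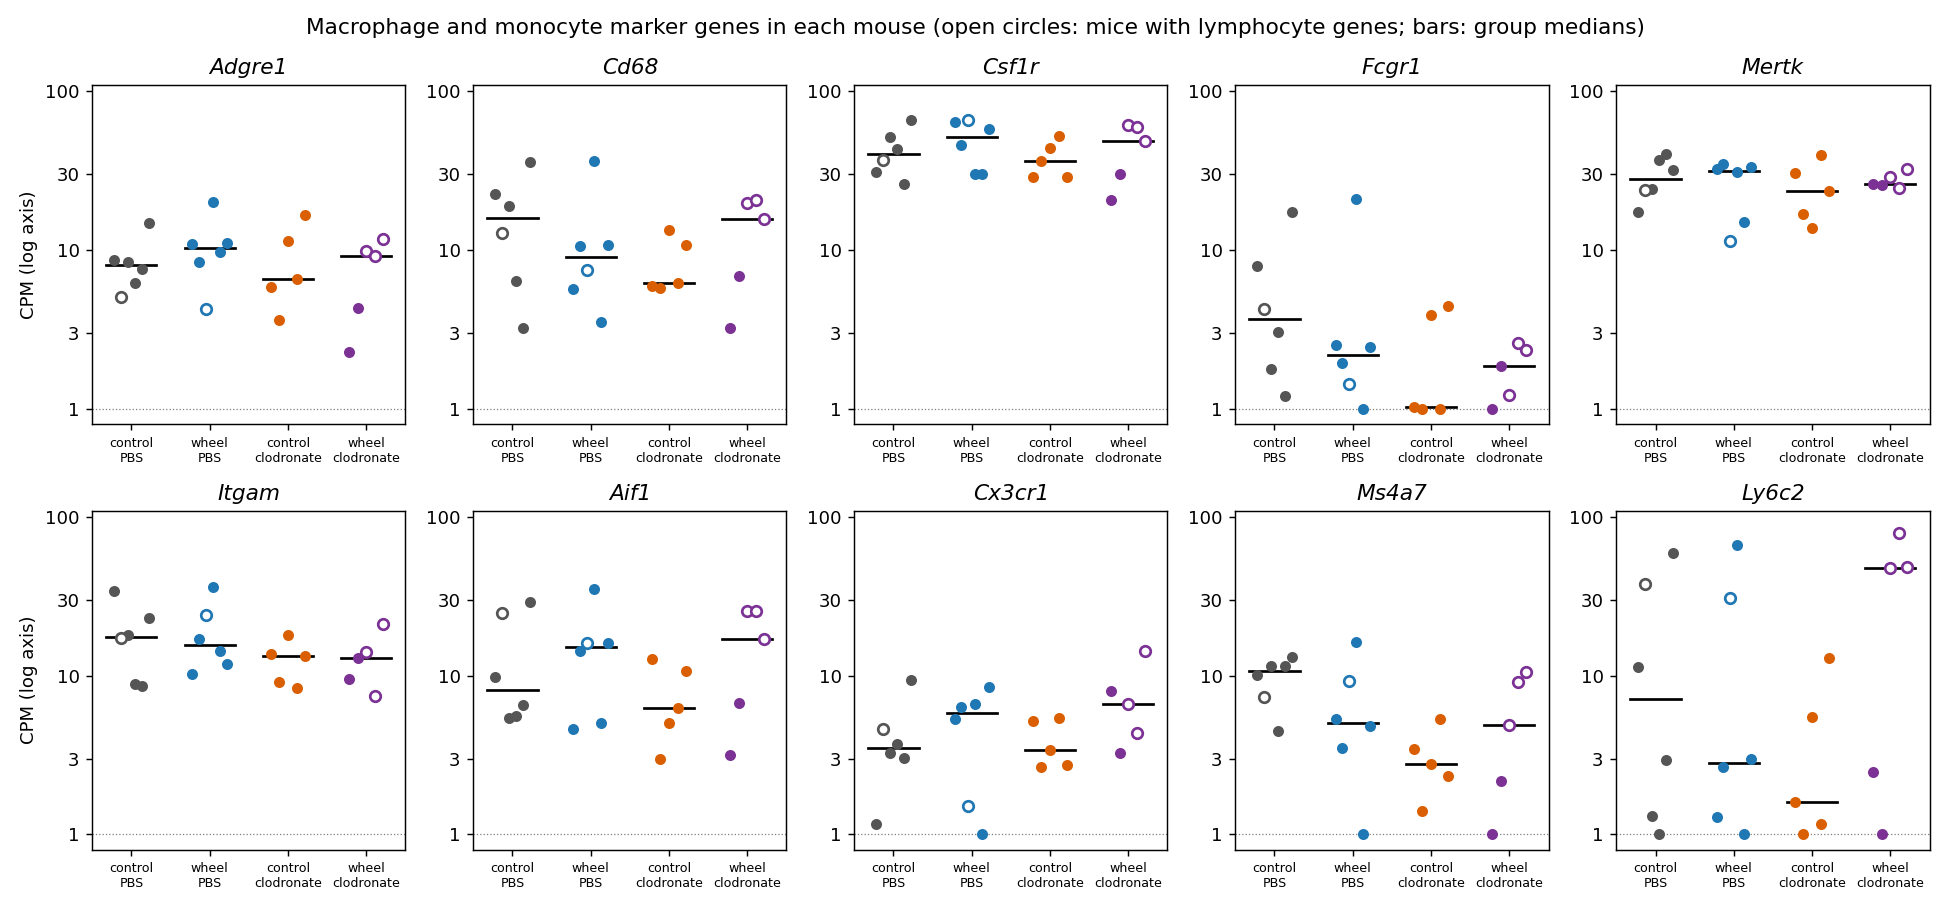
Level of each marker gene in CPM on a log axis (vertical) in each mouse of the 4 groups (horizontal). Points are mice, bars are group medians, the dotted line is the floor of 1 CPM, and open circles are the 5 mice with lymphocyte genes. Csf1r sits between 20.7 and 66.0 CPM throughout, whereas Ly6c2 runs from 1.00 to 79.5 CPM, and the 3 open circles among wheel-running mice with clodronate liposomes lie high for Ly6c2, Aif1 and Cd68.

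The first comparison asks what clodronate liposomes did to each marker. Across control and wheel-running mice together, none of the 10 members passed an adjusted p of 0.05 (limma on log2(CPM + 1), Benjamini-Hochberg over 15138 genes; lowest member adjusted p = 0.391), while 31 genes, 0.205% of those tested, did. Clodronate groups had the lower mean for 8 of 10 members (compared to 57.4% of all genes), with a median log2 change of -0.25 over the members and -0.04 over all genes. With 1 mouse left out the members' median ran from -0.34 (without wheel clodronate mouse 3) to -0.07 (without wheel clodronate mouse 1). It was -0.10 with the replicate number as a block and -0.41 with an adipocyte covariate. The share of all genes with a lower mean depends on the scaling and was 49.2% with upper-quartile scaling, under which 7 of 10 members were lower. A single member, Ms4a7, had an unadjusted limma p under 0.05, as did 10.4% of all genes. That count was 0 without control clodronate mouse 2, wheel PBS mouse 4, wheel clodronate mouse 1 or wheel clodronate mouse 2. It was 2 without control PBS mouse 4 or wheel clodronate mouse 5 or with the adipocyte covariate, and 3 without control PBS mouse 5. In bulk tissue, fewer cells of a type and less RNA per cell cannot be told apart.

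Ms4a7 had the lowest change of the members. In control mice with PBS liposomes it ran from 4.51 to 13.2 CPM (median 10.8, n = 6), and in the 5 control mice with clodronate liposomes it was 1.40, 2.34, 2.79, 3.47 and 5.31 CPM. Only the highest of these 5 mice overlapped the PBS group. The log2 change was -1.41 (SE 0.49, 95% interval -2.41 to -0.40, limma adjusted p = 0.542, unadjusted 0.0081, exact two-sided permutation p = 0.00649), and 0 of 15138 genes passed an adjusted p of 0.05 in this comparison (0%), with 6.99% at an unadjusted p under 0.05. In wheel-running mice Ms4a7 ran from 1.00 to 16.4 CPM with PBS liposomes (median 5.07, n = 6) and was 1.00, 2.18, 4.92, 9.11 and 10.6 CPM with clodronate liposomes, so these groups overlapped throughout. The 3 higher values of the latter are those of the mice with lymphocyte genes. The change there was -0.22 (SE 0.49, limma adjusted p = 0.909) with all mice and -1.16 (SE 0.61, limma adjusted p = 0.594) without the mice with lymphocyte genes, on 2 clodronate mice. Over both activities the change of Ms4a7 was -0.81 (SE 0.34, limma adjusted p = 0.391, exact permutation p = 0.045) with all mice and -1.31 (SE 0.38, limma adjusted p = 0.205) without these 5.

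Among the receptors, Fcgr1 was low in most mice and high in a few. In control mice it ran from 1.21 to 17.5 CPM with PBS liposomes (median 3.65, n = 6) and was 1.00, 1.00, 1.03, 3.91 and 4.45 CPM with clodronate liposomes. In wheel-running mice it ran from 1.00 to 21 CPM with PBS liposomes (median 2.18, n = 6) and was 1.00, 1.22, 1.86, 2.34 and 2.61 CPM with clodronate liposomes. No mouse with clodronate liposomes exceeded 4.45 CPM, while the 3 highest mice with PBS liposomes had 7.96, 17.5 and 21 CPM, and the groups otherwise overlapped. Its log2 change over both activities was -0.69 (95% interval -1.48 to 0.10, limma adjusted p = 0.547), and -0.86 without the mice with lymphocyte genes (limma adjusted p = 0.51). Without wheel PBS mouse 4 it was -0.44.

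Itgam had 8.58 to 34.3 CPM (median 17.6, n = 6) in control and 10.2 to 36.3 CPM (median 15.7, n = 6) in wheel-running mice with PBS liposomes. With clodronate liposomes it was 8.34, 9.08, 13.4, 13.8 and 18.1 CPM in control and 7.41, 9.50, 12.9, 14.2 and 21.3 CPM in wheel-running mice. The groups overlapped, with 1 control and 2 wheel-running clodronate mice below the PBS mice of their activity and none above them. Its change was -0.44 (95% interval -0.95 to 0.08, limma adjusted p = 0.558), and -0.45 without the mice with lymphocyte genes.

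Csf1r and Mertk had the narrowest intervals of the members. Csf1r changed by -0.16 (95% interval -0.58 to 0.26, limma adjusted p = 0.813), and Mertk by -0.05 (95% interval -0.48 to 0.38, limma adjusted p = 0.954). Without wheel clodronate mouse 1 the change of Csf1r was -0.044. Mertk lay within 24.5 to 32.4 CPM in all 5 wheel-running mice with clodronate liposomes. Cx3cr1 was the member with the highest change, 0.30 (95% interval -0.33 to 0.93, limma adjusted p = 0.767), and was at 3.26, 4.37, 6.68, 7.99 and 14.4 CPM in wheel-running mice with clodronate liposomes, compared to 1.00 to 8.45 CPM with PBS liposomes (median 5.85, n = 6). Its groups overlapped in both activities, and without wheel PBS mouse 5 its change was 0.16. Without the mice with lymphocyte genes the changes were -0.47 for Csf1r, -0.22 for Mertk and 0.08 for Cx3cr1 (limma adjusted p = 0.42, 0.746 and 0.947), and the 95% intervals were -0.95 to 0.02 for Csf1r and -0.74 to 0.31 for Mertk.

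Adgre1 was at 3.60, 5.81, 6.61, 11.4 and 16.7 CPM in control mice with clodronate liposomes, around the range of 5.06 to 14.9 CPM with PBS liposomes (median 8.00, n = 6). In wheel-running mice it was 2.27, 4.29, 9.11, 9.84 and 11.8 CPM with clodronate and 4.28 to 20.1 CPM with PBS liposomes (median 10.3, n = 6). The 2 low clodronate mice are those without lymphocyte genes. Its change over both activities was -0.28 (SE 0.28, limma adjusted p = 0.763) with all mice and -0.87 (SE 0.30, limma adjusted p = 0.257) without the mice with lymphocyte genes. Cd68 changed by -0.23 (95% interval -1.03 to 0.57) and Aif1 by -0.30 (95% interval -1.12 to 0.52), with limma adjusted p of 0.867 and 0.822. Without wheel clodronate mouse 1 they were -0.04 and -0.092, and the change of Adgre1 was -0.13. Without the mice with lymphocyte genes these changes were -0.79 and -0.77 (limma adjusted p = 0.514 and 0.489).

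Ly6c2 was at most 3.01 CPM in 12 mice and ran from 5.51 to 79.5 CPM in the others. With clodronate liposomes it was 1.00, 1.17, 1.61, 5.51 and 13 CPM in control mice, and 1.00, 2.48, 48.2, 48.6 and 79.5 CPM in wheel-running mice. With PBS liposomes it ran from 1.00 to 59.8 CPM in control (median 7.16, n = 6) and from 1.00 to 66.9 CPM in wheel-running mice (median 2.83, n = 6). The 3 highest wheel-running mice with clodronate liposomes are those with lymphocyte genes. Its change over both activities was 0.03 (95% interval -1.60 to 1.65, limma adjusted p = 0.995) with all mice and -0.89 (95% interval -2.66 to 0.88, limma adjusted p = 0.679) without them, so neither its direction nor its size was settled at this spread.

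Set apart by activity, 9 of the 10 members had a lower mean with clodronate in control mice (median log2 change -0.51, compared to -0.10 over all genes, of which 65.4% were lower). With upper-quartile scaling 8 of 10 members were lower (median -0.40), and 51.1% of all genes (median -0.01). In wheel-running mice 5 were lower (compared to 49.9% of all genes), Aif1 stood at 0.00, and the median was -0.10 compared to 0.00 over all genes, turning to 0.16 without wheel clodronate mouse 1 and to 0.038 with the replicate block. With wheels no member passed (limma, lowest adjusted p = 0.656), where 1 gene did (0.00661%) and 11.6% had an unadjusted p under 0.05. In neither activity did any member have groups that did not overlap, as 0.634% of all genes did in control and 1.26% in wheel-running mice. Without the mice with lymphocyte genes, clodronate means were lower for 9 of 10 members given wheels, with a median of -0.89 (all genes -0.08, of which 58.9% were lower), and for 9 of 10 over both activities, with a median of -0.78 (all genes -0.09, of which 63.4% were lower). Cx3cr1 was the exception in both. Adgre1 and Ms4a7 then had an unadjusted limma p under 0.05 over both activities (2 of 10 members, compared to 12.5% of all genes), and 0% of genes passed an adjusted p of 0.05.

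**Figure D2:**
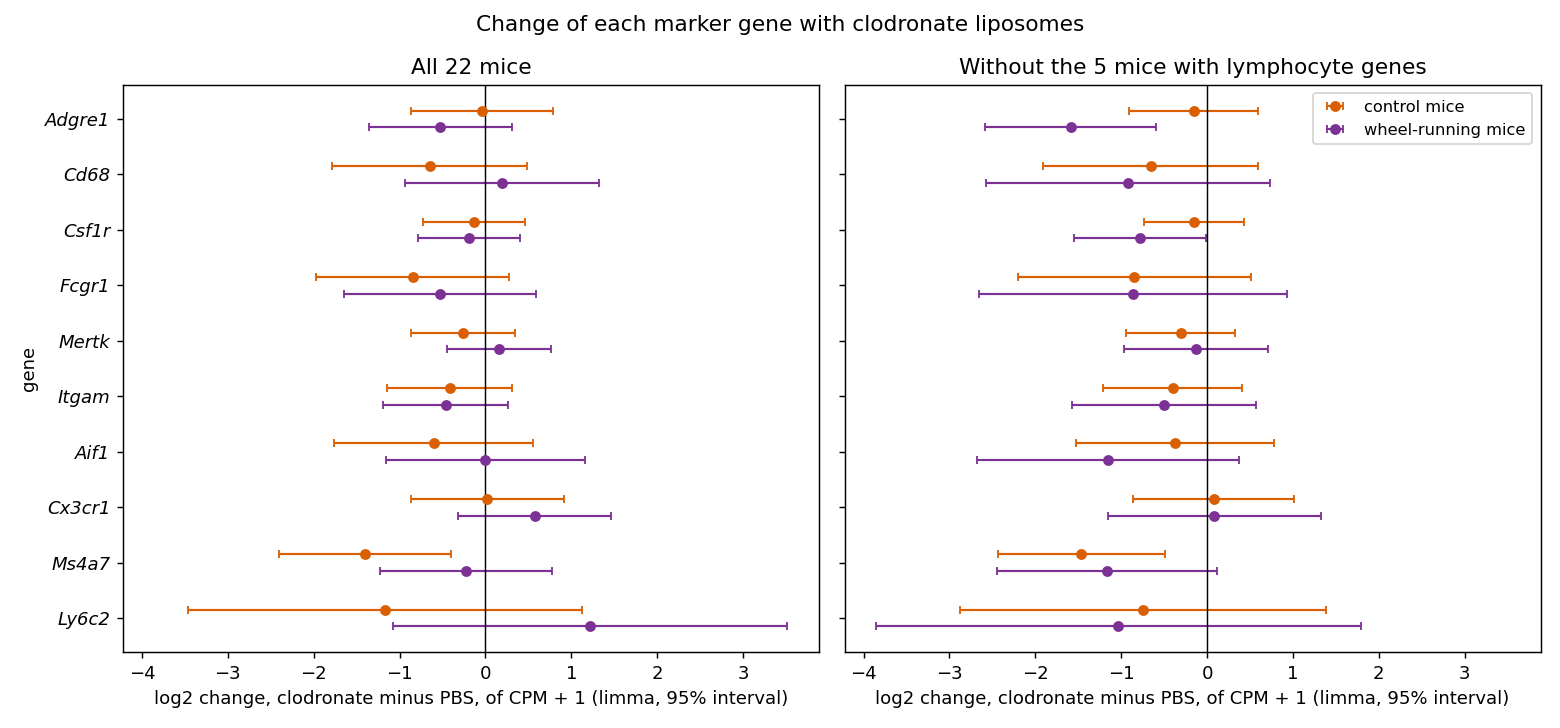
Change with clodronate liposomes on the log2(CPM + 1) scale (horizontal) for each marker gene (vertical), in control and wheel-running mice, with all 22 mice (left) and without the 5 mice with lymphocyte genes (right). Points are limma estimates and bars are 95% intervals. In control mice 9 of 10 points lie below 0 in both panels, while in wheel-running mice the median moves from -0.10 to -0.89, where 2 clodronate mice remain.

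The next comparisons ask whether wheel running changed the markers. With PBS liposomes wheel running went with lower means for 5 members and higher means for 5 (median change -0.06). Over all genes the median was -0.085, and 63.8% were lower. The members' median ran from -0.20 (without wheel PBS mouse 4) to 0.20 (without control PBS mouse 6). It was 0.032 with upper-quartile scaling and 0.071 over the 9 members with a mean of at least 5 CPM. Its sign thus rests on single mice and on the processing. Upper-quartile scaling put 50.2% of all genes lower. No member passed (limma, lowest adjusted p = 0.987; 0% of all genes did, and 4.91% had an unadjusted p under 0.05). Ms4a7 had the lowest change, -0.71 (95% interval -1.67 to 0.25), and Adgre1 the highest, 0.26 (95% interval -0.53 to 1.06). Ms4a7 was at -0.38 without wheel PBS mouse 5, and Adgre1 at 0.072 without wheel PBS mouse 4. With clodronate liposomes 8 members were higher in wheel-running mice (median 0.33, all genes 0.005, of which 49.3% were lower), led by Ly6c2 at 2.07 (95% interval -0.32 to 4.47, limma adjusted p = 0.574). No member passed, compared to 0.00661% of genes at an adjusted and 10.4% at an unadjusted p under 0.05. Without the mice with lymphocyte genes 8 members were instead lower (median -0.50), on 2 wheel-running mice with clodronate liposomes. Over all genes the median was then -0.04, and 55.8% were lower. The members' direction with all mice thus rests on the mice with lymphocyte genes.

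Whether the response to clodronate differed between activities was tested by the interaction. None of the 10 members passed (limma, lowest adjusted p = 0.713), nor did any gene (0%, with 7.58% at an unadjusted p under 0.05). The widest member interactions were Ly6c2 at 2.39 (95% interval -0.86 to 5.64) and Ms4a7 at 1.18 (95% interval -0.23 to 2.60), and without the mice with lymphocyte genes they were -0.29 and 0.30. Adgre1 had the lowest interaction without those mice, -1.44 (95% interval -2.68 to -0.19, limma adjusted p = 1.0), on 2 wheel-running mice with clodronate liposomes.

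The spread between mice of a group was wide for these genes. The within-group SD on the log2(CPM + 1) scale was 2.05 for Ly6c2, 1.00 for Aif1, 0.98 for Cd68 and 0.97 for Fcgr1, and 0.51 for both Csf1r and Mertk. These SDs include the mice with lymphocyte genes. The SD that counting error alone would give was 0.14 for Ly6c2 and 0.11 for Cd68 and Aif1. It covers counting error only and not differences between mice, and the part of depth in the spread was not tested. Among genes of like level (within 0.25 of the gene's mean log2), Ly6c2 varied more than 98.8%, Aif1 more than 94.1% and Cd68 more than 93.5%, whereas Cx3cr1 varied more than 66.8%. All 10 members varied more than the median gene of like level.

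In some mice many markers were high together. Control PBS mouse 6 was the highest of its 6 mice for 8 of the 10 members, and wheel PBS mouse 4 for 7 of the 10. Their mean log2(CPM + 1) over the members was 4.72 and 4.76, the highest of the 22 mice, while their lymphocyte scores of 1.26 and 1.12 were those of the mice without lymphocyte genes. The exceptions in control PBS mouse 6 were Itgam and Mertk, and in wheel PBS mouse 4 they were Csf1r, Mertk and Cx3cr1. At the other end, control clodronate mouse 2 was the lowest of its 5 for 7 members and wheel clodronate mouse 1 for 6, with member means of 2.48 and 2.54, and wheel PBS mouse 5 had 4 members at the floor, with a mean of 2.51.

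**Figure D3:**
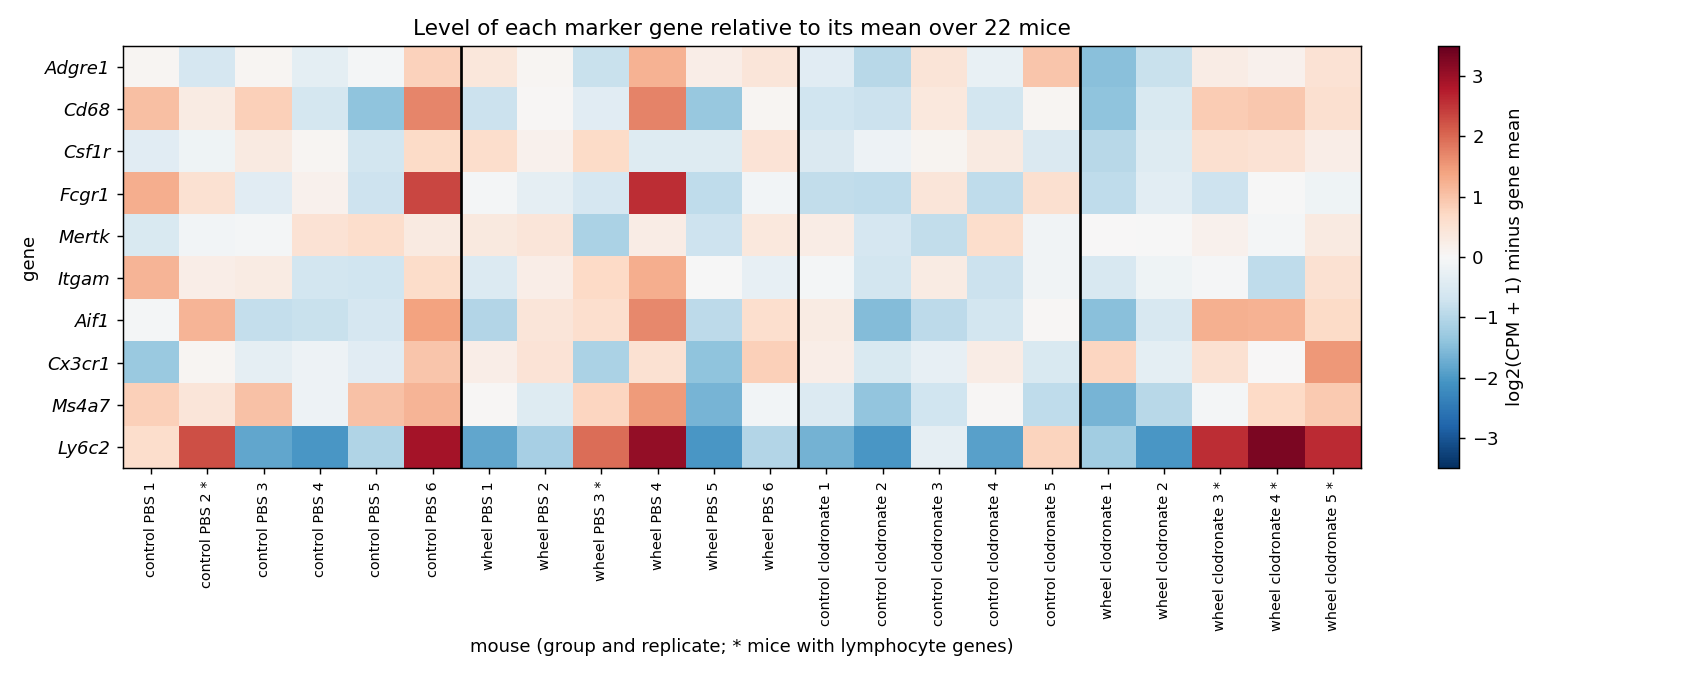
Level of each marker gene (rows) in each mouse (columns) as log2(CPM + 1) minus the mean of that gene over 22 mice, with black lines between groups and asterisks on the 5 mice with lymphocyte genes. Control PBS mouse 6 and wheel PBS mouse 4 are red for Ly6c2, Fcgr1, Cd68 and Aif1 together, whereas the mice with asterisks are red for Ly6c2 and near white or blue, at most pale red, for Fcgr1.

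The members did not vary as a single block. Over the 17 mice without lymphocyte genes and after removing group means, 20 of the 45 pairs had a Pearson's r above 0.5 and 9 were below 0 (median 0.49). These are descriptions from mice that share libraries between the genes compared, given without p. Fcgr1 and Ly6c2 were the closest pair (r = 0.93, Spearman's rho = 0.81, and r = 0.82 without the 2 mice farthest on Fcgr1), followed by Cd68 with Fcgr1 (r = 0.86, rho = 0.70) and Cd68 with Itgam (r = 0.85, rho = 0.85). Adgre1 and Aif1 went with them, at r of 0.57 to 0.79 with Fcgr1, Ly6c2, Cd68 and Itgam. For Aif1 this rests in part on control PBS mouse 6 and wheel PBS mouse 4, without which its r was 0.42 with Fcgr1 and 0.53 with Ly6c2. Mertk instead went with Cx3cr1 (r = 0.69, rho = 0.58) and against Itgam (r = -0.43, rho = -0.51). Csf1r had no pair above r = 0.49, its value with Cx3cr1.

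**Figure D4:**
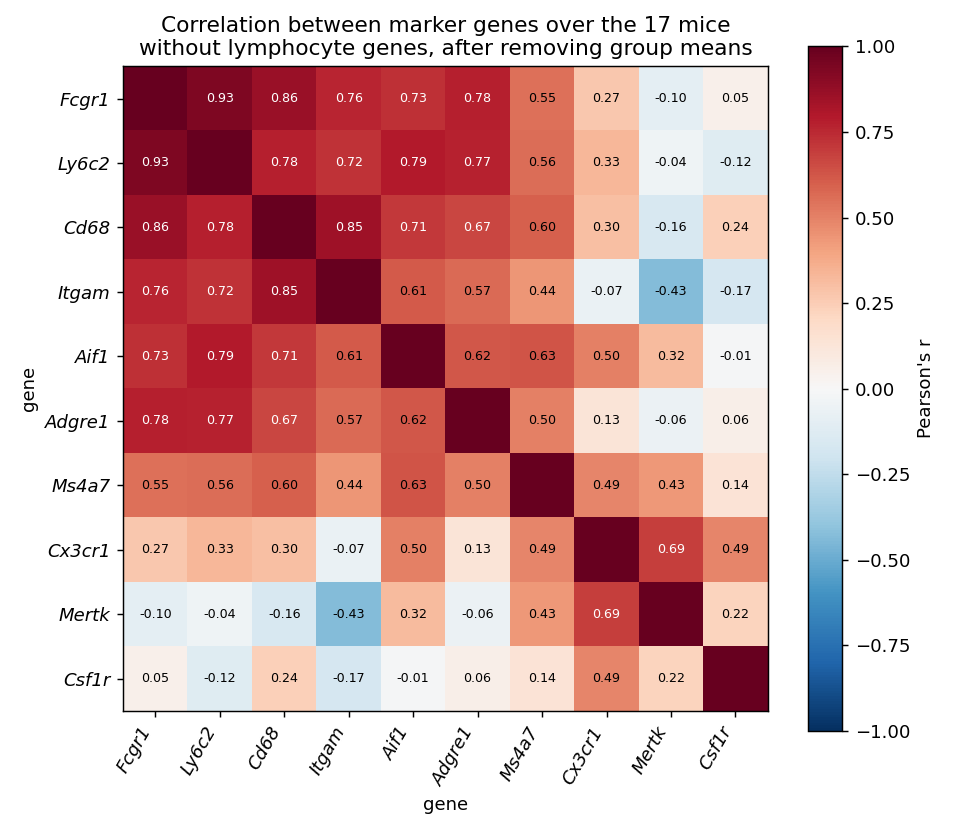
Pearson's r between each pair of marker genes (rows and columns) over the 17 mice without lymphocyte genes, computed on log2(CPM + 1) after removing group means. Fcgr1, Ly6c2, Cd68, Itgam, Aif1 and Adgre1 have r from 0.57 to 0.93 with each other, Cx3cr1 and Mertk pair at 0.69, and Csf1r stays at or below 0.49 with all others.

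Set beside marker lists of other cells over the same 17 mice, Fcgr1, Ly6c2, Cd68 and Itgam followed the 8 monocyte genes (r of 0.88, 0.85, 0.85 and 0.81, and 0.68, 0.58, 0.72 and 0.79 without the 2 farthest mice), which include Ccr2, the chemokine receptor of classical monocytes. With the 14 other phagocyte genes their r was 0.82, 0.81, 0.90 and 0.65, and 0.72, 0.72, 0.84 and 0.59 without the 2 farthest mice. Here the 2 farthest mice are those whose list score, after removing group means, lay farthest from its median. They were picked for each list apart, so values without them can rest on different mice for different lists. Cd68 was closer to the other phagocyte list in both cases, and Fcgr1 and Ly6c2 only without the 2 mice farthest on each list. Itgam was closer to the monocyte genes in both cases. Csf1r followed the 12 genes of resident macrophages such as Mrc1 and Lyve1 (r = 0.77, rho = 0.73, 0.66 without the 2 farthest mice) and not the monocyte genes (r = 0.05). Mertk ran against the neutrophil genes (r = -0.75, rho = -0.75, -0.69 without the 2 farthest mice), the monocyte genes (r = -0.32, rho = -0.59, -0.69 without them) and the dendritic cell genes (r = -0.47, rho = -0.46, -0.58 without them). Mertk also ran against the muscle genes (r = -0.39, rho = -0.49, -0.61 without them) and the lymphocyte genes (r = -0.36, rho = -0.40, -0.51 without them). It went with the adipocyte genes (r = 0.61, rho = 0.60, 0.49 without the 2 farthest mice) and the endothelial genes (r = 0.50, rho = 0.55, 0.60 without them), while its r with the resident macrophage genes was -0.05. For 7 of the 10 members the values ran against the mammary epithelial genes at r of -0.43 or lower. Ms4a7 was lowest by r (r = -0.74, rho = -0.63, -0.71 without the 2 farthest mice). Cd68 was lowest by rho and without those mice (r = -0.67, rho = -0.68, -0.73 without them). Without the 2 farthest mice Adgre1 (-0.31) and Ly6c2 (-0.39) rose above that limit. Whether these values follow the epithelial content of the tissue pieces was not tested. The parts of adipocyte and epithelial content in the clodronate results were not tested beyond the adipocyte covariate given with the alternatives.

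Ly6c2 and Fcgr1 parted in the mice with lymphocyte genes. In those 5 mice Ly6c2 was 30.8 to 79.5 CPM (median 48.2) while Fcgr1 was 1.22 to 4.26 CPM (median 2.34). In the 4 other mice with Ly6c2 above 10 CPM, Ly6c2 was 11.4 to 66.9 CPM (median 36.4) and Fcgr1 4.45 to 21 CPM (median 12.7). The sets overlap in Ly6c2, and in Fcgr1 their nearest mice had 4.26 and 4.45 CPM. The sets also differ in liposome. Of the 5 mice 3 had clodronate liposomes, and those with PBS liposomes had 4.26 and 1.43 CPM of Fcgr1. Of the 4 others only control clodronate mouse 5 had clodronate liposomes, with 4.45 CPM of Fcgr1. Lymphocyte genes and liposome therefore cannot be told apart in this comparison. The limit of 10 CPM was chosen after seeing the data, and control clodronate mouse 3, with 5.51 CPM of Ly6c2 and 3.91 CPM of Fcgr1, falls outside it and within the Fcgr1 range of the first set. Ly6C is also carried by some lymphocytes, and in bulk tissue the level of Ly6c2 cannot be assigned to a cell type. Ly6c1 was 43.5 to 154 CPM in the 22 mice. The mouse with the lowest Ly6c1, wheel clodronate mouse 4, had the highest Ly6c2 (79.5 CPM). Over the 22 mice the r of the pair was -0.41, and the r of Ly6c1 with Ly6c2 over the 17 mice was -0.02 (rho = 0.13, and 0.29 without the 2 mice farthest on Ly6c1).

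**Figure D5:**
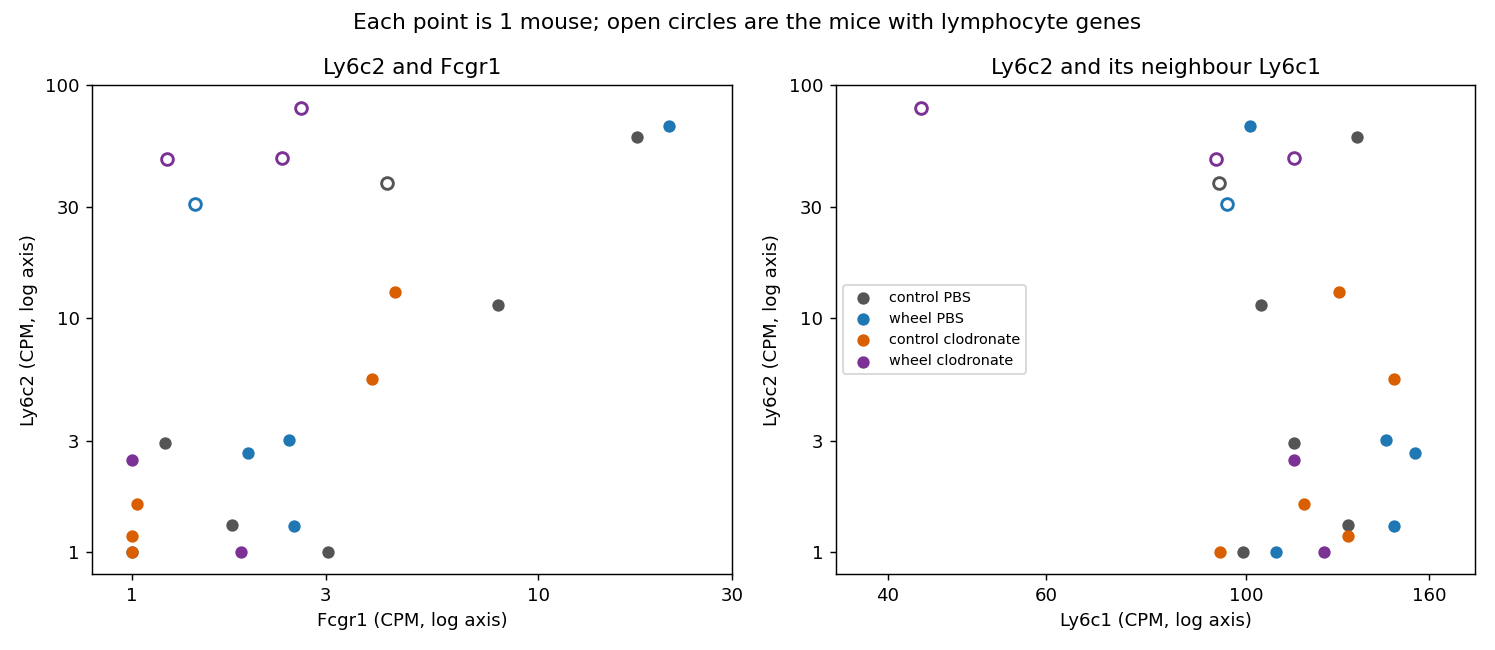
Ly6c2 (vertical, CPM, log axis) against Fcgr1 (left) and Ly6c1 (right), both in CPM on log axes, with 1 point for each mouse, colored by group, and open circles for the 5 mice with lymphocyte genes. The filled points rise together for Ly6c2 and Fcgr1 (r = 0.93 over 17 mice), the open circles lie at high Ly6c2 and at Fcgr1 of 1.22 to 4.26 CPM, and with Ly6c1 the r over the 17 mice is -0.02.

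The genes outside the list whose values were closest to each member were found by Pearson's r over the 22 mice after removing group means, among 10103 genes with a mean of at least 5 CPM, and the value over the 17 mice is given beside it. The 3 nearest to Cd68 were Clec4a3, a lectin receptor of myeloid cells (r = 0.93, and 0.94 over 17 mice), Pfdn4 (0.87 and 0.84) and Spi1, which encodes PU.1 (0.87 and 0.93). Those of Aif1 were Slfn2 (0.90 and 0.87), Spi1 (0.88 and 0.83) and Rnf213 (0.87 and 0.83), and those of Ly6c2 were Ctss, a lysosomal protease of antigen-presenting cells (0.94 and 0.90), Rnf213 (0.93 and 0.93) and Cd180 (0.93 and 0.89). Spi1 and Rnf213 each stood near 2 members. Fcgr1 had the interferon-induced gene Ifi211 (0.86 and 0.87), Dis3 (0.85 and 0.91) and C3ar1, the receptor for the complement fragment C3a (0.84 and 0.90). Itgam had the chemokine gene Ccl9 (0.88 and 0.87), Hmga2 (0.87 and 0.88) and Ccl2, which attracts monocytes (0.86 and 0.87). For Csf1r they were Pou2f1 (0.86 and 0.77), Serping1, the inhibitor of complement C1 (0.83 and 0.93), and Slc25a45 (0.82 and 0.70). For Mertk they were Pigyl (0.93 and 0.92), Plce1 (0.89 and 0.87) and Kidins220 (0.88 and 0.84). Adgre1 had Nop2 (0.79 and 0.85), Ttll4 (0.79 and 0.87) and Nop14 (0.78 and 0.66). Cx3cr1 had Ccdc84 (0.79 and 0.81), Fbxo3 (0.78 and 0.81) and Emc8 (0.76 and 0.83), and Ms4a7 had Gusb, a lysosomal enzyme (0.85 and 0.81), Dnajc10 (0.83 and 0.78) and Itpr1 (0.83 and 0.78). The ranking itself changed when made over the 17 mice, where Nop2 was the nearest to Fcgr1 (r = 0.93, rho = 0.77) and Kat14 the nearest to Ms4a7 (r = 0.86, rho = 0.73).

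Ligands and relatives of the member receptors were listed beside them. The counts of lower genes below stand beside 57.4% of all genes with all mice and 63.4% without the mice with lymphocyte genes. Of these 14 genes, among them Csf1 and Il34 (ligands of the CSF1 receptor), Gas6 and Pros1 (bridging ligands of MerTK), Cx3cl1 and the Fc receptor genes, 0 passed in either direction over both activities (limma, 15138 genes), 9 were lower and the median change was -0.15 (-0.20 without the mice with lymphocyte genes). Fcgr3, a low-affinity IgG receptor, had the lowest change (-0.75, SE 0.33, limma adjusted p = 0.417), and Tyro3, a relative of Mertk, the highest (0.43, SE 0.33, limma adjusted p = 0.683). Of 14 other phagocyte genes 0 passed and 9 were lower (median -0.12), and 14 of 14 were lower without the mice with lymphocyte genes (median -0.47). C1qa, a complement component made by macrophages, had the lowest change (-0.31, SE 0.14, limma adjusted p = 0.441), and Irf8, a factor of monocyte development, the highest (0.34, SE 0.57, limma adjusted p = 0.867). Of 12 resident macrophage genes 11 were tested, 0 passed and 9 were lower (median -0.26, and -0.42 without those mice), with F13a1 lowest (-0.69, SE 0.23, limma adjusted p = 0.232) and Marco, a scavenger receptor, highest (0.67, SE 0.65, limma adjusted p = 0.755). Of 8 monocyte genes 7 were tested, 0 passed and 2 were lower (median 0.17), and without the mice with lymphocyte genes 5 were lower (median -0.21). Ccr2 had the lowest change with all mice (-0.78, SE 0.28, limma adjusted p = 0.279).

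Genes of other cell types stood as follows beside the members over both activities, with 0 genes past an adjusted p of 0.05 in any of these lists. All 12 lymphocyte genes (median 0.68) and 4 of 4 tested lymph node genes (median 0.88) were higher with clodronate, and without the mice with lymphocyte genes the medians were -0.02 and 0.00. All 9 adipocyte genes were lower (median -0.36, and -0.32 without those mice). The adipocyte score ran from 9.38 to 9.93 in wheel-running mice with clodronate liposomes and from 9.69 to 10.5 in those with PBS liposomes. Muscle genes were higher (7 of 7, median 1.52, and 2.82 without those mice), and epithelial genes were lower for 3 of 8 (median 0.11, with and without those mice). The median for 4 tested natural killer genes was 0.31 with all mice and -0.06 without those mice, so its direction turned. Medians with all mice and without those mice were 0.10 and 0.06 for 7 dendritic cell genes, 0.07 and 0.20 for 5 tested neutrophil genes and -0.18 and -0.21 for 6 endothelial genes. Of the eosinophil genes, 0 of 5 were above the floor in enough mice to be tested. The share of reads assigned to genes had a median of 57.8% in wheel-running mice with clodronate liposomes and of 60.6% to 61.7% in the other groups. The part of these differences in the members' values was not tested.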

How the data were processed

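QuantSeq 3′ FWD libraries of mammary tissue from 22 mice were analysed, in 4 groups taken from the labels, which place every mouse in experiment 1. The authors mapped reads (STAR 2.5.3a and GRCm38 are named in the submitters' processing notes; the counting annotation is not given in the sources used here) and deposited 1 file per mouse with a signal in CPM, values below 1 raised to 1. Whole reads above the floor show that the total includes reads outside genes (4 rows that name no gene, 35.5% to 42.8% of reads), which were left out of tests. Of 52526 symbols, 106 were listed more than once and the row with the highest mean was kept. Itgam has a second row at the floor in all 22 mice.

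The 15138 genes that 5 or more mice had above the floor entered limma 3.58.1 (R 4.3.3) on log2(CPM + 1), which understates the changes of low genes, with 4 group means, eBayes with a variance trend and Benjamini-Hochberg adjustment over all of them. Members were also compared by exact two-sided permutation of mice (462, 924 or 252 assignments, and 213444 or 232848 where 2 comparisons combine). Scores are means of log2(CPM + 1) over a list, and mice with a lymphocyte score over 3 were left out as an alternative. Scripts were tested on simulated data. Python 3.11.15, numpy 2.4.6, pandas 2.3.3 and scipy 1.17.1 were used. The members and lists were chosen with earlier results of these data known. Genes named are all members, genes with the lowest or highest change of the other phagocyte lists (1 such gene is not reported here), and the 3 nearest genes of each member. A count test needs the reads lost at the floor and was not used. Alternatives were other pseudocounts, filters, scalings and variance models, the replicate block, an adipocyte covariate, only the groups compared and leaving out mice. The restriction of correlations to 17 mice was chosen after seeing the data.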

Additional observations from a re-analysis of the deposited data

Results flagged for a closer look

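Of 40 combinations of member and group, 1 held a mouse far from the rest of its group. Fcgr1 in wheel PBS mouse 4 was 21 CPM, and the next of the 6 mice was 2.51 CPM. On the log2(CPM + 1) scale this gap was 0.77 of the group's range, where 0.625 is the limit for 6 mice. Chance gives about 1 in 20 such groups, or 2.0 of 40. That mouse was also the highest of its group for 6 other members and had no lymphocyte genes.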

How the results depend on the processing

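Under 12 alternatives and without each of the 22 mice, 0 of the 10 members passed an adjusted p of 0.05 in any comparison (lowest adjusted p = 0.205). Of 694 member changes under the 12 alternatives 29 turned direction, 16 of them without the mice with lymphocyte genes, and of 1320 with 1 mouse left out 76 did; the cause was not tested. Values below the floor were not detectable, and the part of depth in the other values was not tested. The results without the mice with lymphocyte genes rest on 2 wheel-running clodronate mice. With 1 mouse left out the members' median ran from -0.34 to -0.07 over both activities, -0.67 to -0.33 in control and -0.27 to 0.16 in wheel-running mice, -0.20 to 0.20 and 0.18 to 0.49 for activity with PBS and clodronate liposomes, and 0.28 to 0.74 for the interaction. Over both activities that median was -0.10 with the replicate block and -0.41 with the adipocyte covariate (-0.25 in the main analysis). In wheel-running mice it was 0.038 with the block, 0.00 over the 9 members with a mean of at least 5 CPM and -0.03 scaled to assigned reads (-0.10 in the main analysis). Upper-quartile scaling took the share of all genes with a lower mean from 57.4% to 49.2% over both activities. In control mice that share went from 65.4% to 51.1%, and for activity with PBS liposomes from 63.8% to 50.2%. The members' median for activity with PBS liposomes turned to 0.032 with that scaling. It turned to 0.071 over the 9 members with a mean of at least 5 CPM (-0.06 in the main analysis).

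Over both activities Mertk turned to 0.0043 with upper-quartile scaling, 0.013 with the replicate block and 0.21 with the adipocyte covariate, and Ly6c2 to -0.60 with that covariate and -0.89 without the mice with lymphocyte genes. In control mice Cx3cr1 turned to -0.015 with a pseudocount of 5, and Adgre1 to 0.066 with upper-quartile scaling and 0.06 with the replicate block. In wheel-running mice Aif1 turned to -0.013 with a pseudocount of 0.1, -0.014 with none, -0.0073 with upper-quartile scaling and -0.14 with the adipocyte covariate, which took Cd68 to -0.055. Without the mice with lymphocyte genes the clodronate changes in wheel-running mice turned for Cd68 (-0.92), Mertk (-0.12), Aif1 (-1.16) and Ly6c2 (-1.03), and the members' median moved to -0.89. For wheel against control, Itgam then turned with PBS liposomes (-0.01), and with clodronate liposomes so did Cd68 (-0.63), Csf1r (-0.55), Itgam (-0.11), Aif1 (-0.45), Ms4a7 (-0.62) and Ly6c2 (-0.60), the median moving to -0.50, while the adipocyte covariate took Itgam to -0.096. The interaction turned for Cd68 (-0.26), Fcgr1 (-0.015), Aif1 (-0.78) and Ly6c2 (-0.29), with a median of -0.18.

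Leaving out single mice, the clodronate change over both activities ran from -0.26 to 0.41 for Ly6c2 and -0.15 to 0.039 for Mertk. In control mice it ran from -0.29 to 0.20 for Adgre1, -0.25 to 0.008 for Csf1r and -0.20 to 0.25 for Cx3cr1. In wheel-running mice it ran from -0.25 to 0.42 for Aif1, -0.047 to 0.57 for Cd68, -0.34 to 0.041 for Csf1r, -0.044 to 0.26 for Mertk and -0.55 to 0.13 for Ms4a7. Wheel against control with PBS liposomes ran from -0.12 to 0.44 for Aif1, -0.11 to 0.38 for Cx3cr1, -0.13 to 0.27 for Itgam, -0.96 to 0.24 for Ly6c2 and -0.33 to 0.011 for Mertk. With clodronate liposomes it ran from -0.45 to 0.08 for Adgre1, -0.012 to 0.37 for Csf1r, -0.24 to 0.12 for Fcgr1 and -0.16 to 0.19 for Itgam. The interaction ran from -0.21 to 0.17 for Csf1r, -0.044 to 0.81 for Fcgr1 and -0.25 to 0.16 for Itgam.

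Over all genes, 31 passed over both activities, and 54 did with a mean of at least 5 CPM, 20 without the variance trend, 15 scaled to assigned reads, 12 with upper-quartile scaling, 11 with the replicate block, and 0 with the adipocyte covariate or without the mice with lymphocyte genes. In wheel-running mice 1 gene passed, and 4 did without a filter, 3 with a pseudocount of 5 or upper-quartile scaling, 2 scaled to assigned reads or without the trend, 14 without the mice with lymphocyte genes, and 0 with the mean filter, the replicate block, the covariate or only the groups compared. For wheel against control with clodronate liposomes 1 passed, and 3 did without a filter, 12 without the mice with lymphocyte genes and 0 with the mean filter, the replicate block, the covariate or only the groups compared. For the interaction 2 passed without a filter. With 1 mouse left out, the counts ran from 9 (without control clodronate mouse 3) to 146 (without control clodronate mouse 1) over both activities, 0 to 38 in control mice (without control clodronate mouse 1), 0 to 51 in wheel-running mice and 0 to 236 for activity with clodronate liposomes (both without wheel clodronate mouse 2). Replicate numbers are shared by different mice. Over 31 same-numbered pairs the mean r of deviations was 0.048 (-0.388 to 0.517), with 12 pairs over 0.1. Between groups that mean ran from -0.129 (control PBS with wheel clodronate) to 0.181 (control clodronate with wheel clodronate). Pairs with different numbers were not set beside these, so whether the numbers pair the mice was not tested. The planned count test on recovered reads was not run, since reads at the floor are lost.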
